A study of Homo sapiens with 12 samples.

Results

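The 10 genes described here encode inflammatory chemokines and cytokines that MDA-MB-231 cells can secrete: CXCL1, CXCL2, CXCL3, CXCL8, CCL2, CCL5, CCL20, IL1A, IL1B and CSF2. They were selected by gene name, with earlier results of these data known, out of 60558 genes present in the RNA-seq tables of both experiments, and all 10 were found. MDA-MB-231 is an established human line of triple-negative breast cancer (TNBC), a tumour type without estrogen receptor, progesterone receptor or HER2 amplification. One experiment compared 3 libraries of cells with siRNA knockdown of NONO, an RNA- and DNA-binding protein of nuclear paraspeckles, with 3 negative control (NC) libraries labelled wild type. The other compared 3 libraries with siRNA knockdown of PKM2, a pyruvate kinase isoform, with 3 NC libraries of its own. The study asked which transcripts the NONO/PKM2 pair controls in TNBC cells. All 12 libraries came from this single line, and nothing in the labels ties a repeat to a separate culture, so the p-values below measure the spread between these samples, which may be technical. The labels do not say which of the siRNAs made for each target was used.

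CXCL1, CXCL2, CXCL3 and CXCL8 are chemokines that recruit neutrophils through the receptor CXCR2, CCL2 and CCL5 draw in monocytes and T cells, and CCL20 acts on CCR6. IL1A and IL1B are the founding cytokines of the interleukin 1 family, and both bind IL1R1, which signals through MYD88 to the transcription factor NF-kB. CSF2 encodes GM-CSF, a growth factor for granulocytes and macrophages. NF-kB drives transcription of most of these genes, and many of their mRNAs carry AU-rich elements in the 3′ untranslated region (UTR) that shorten mRNA life. MDA-MB-231 cells are known to secrete CXCL8 without added stimulus.

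Of these genes, 4 lie close together on chromosome 4 and carry the same kappa-B letters, GGAATTTCC, in the bases before the transcription start. Promoters of 250 bases before to 50 bases after the start were taken from RefSeq (GRCh38.p14), where 8 of the 10 genes had an entry, IL1A with 2 starts; CCL2 and CCL5 had none. The windows below are 30 bases long, written 5′ to 3′ on the strand of the gene, with the GGAATTTCC match in capitals. CXCL1 lies on the plus strand at chr4:73869304-73869333, with the match 78 to 70 bases before the start. CXCL2 is on the minus strand at chr4:74099254-74099283, with the match at 77 to 69. CXCL3 is on the minus strand at chr4:74038749-74038778, with the match at 78 to 70. CXCL8 is on the plus strand at chr4:73740467-73740496, with the match at 91 to 83.
CXCL1: ctggaactccgGGAATTTCCctggcccggg
CXCL2: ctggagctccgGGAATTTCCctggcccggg
CXCL3: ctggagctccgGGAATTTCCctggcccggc
CXCL8: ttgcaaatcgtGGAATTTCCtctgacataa
The windows of CXCL1, CXCL2 and CXCL3 are nearly the same in every base, whereas that of CXCL8 shares little outside the capitals. For CXCL2 and CXCL3, the GENCODE 29 gene models begin upstream of these windows.

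Searched on both strands, GGAATTTCC was present in promoters of 4 of the 8 genes and in 0.461% of 35116 promoters of the same length. The members were counted by gene, whereas the 35116 promoters were counted by start. A wider kappa-B form, GGG followed by any 5 bases and CC, which overlaps the first in CXCL1, CXCL2 and CXCL3, was present in 6 of the 8 and in 58.7% of all promoters. The AP-1 form TGANTCA was found in the promoters of IL1A and CXCL8, that is 2 of the 8, and in 7.71% of all promoters. The letters GGAATTTCC were chosen after the promoters had been seen, and a match is a description of sequence, not of binding. Over the 200 bases before the start, CXCL1 was 80.8% identical to CXCL3 and 77.2% identical to CXCL2, whereas its identity with CXCL8 was 44.5%. With promoters this similar, the matches in CXCL1, CXCL2 and CXCL3 do not count as independent.

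The library totals ranged from 19861762 to 20981712 estimated counts in the NONO experiment and from 24097948 to 28455268 in the PKM2 experiment. NONO mRNA fell by 2.57 on the log2 scale (SE 0.05, adjusted P = 1.17e-10, edgeR quasi-likelihood test) in its knockdown, and PKM mRNA, counted over all isoforms, fell by 3.32 (SE 0.05, adjusted P = 7.03e-12) in the PKM2 knockdown. By the same test PKM mRNA rose by 0.26 after NONO knockdown (adjusted P = 0.000122). NONO mRNA rose by 0.30 after PKM2 knockdown (adjusted P = 7.54e-05). The mesenchymal markers VIM, CD44, CAV1 and AXL summed to 3949 to 5225 TPM, a level scaled for gene length and library size, over all libraries, while 8 leukocyte markers summed to 0.98 to 2.09 TPM with CD3E and TYROBP among those listed at 0 throughout. Luminal markers summed to 2.72 to 8.24 TPM and endothelial ones to 0.46 to 2.5 TPM. NC library 1 of the NONO experiment stood apart from its group, with a chi-square per degree of freedom over genes of 8.89 and 11.04 against its 2 fellows, which differed from each other by 2.51. PKM2 knockdown library 3 likewise stood at 13.1 and 11.03, against 3.40 between the others. For the 10 genes, results that change without these libraries are given with and without them, which was not computed for the pathway lists.

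IL1B was by far the most abundant of the 10 mRNAs in NC cells. Per length, NC cells of the NONO experiment held 411 ± 132 TPM of IL1B (SD, n = 3), and those of the PKM2 experiment 335 ± 63.1 TPM. CXCL8 followed at 68.5 ± 13.4 and 91.2 ± 26.4 TPM, below IL1B in each of the NC libraries. CXCL2 came next at 47.7 ± 14 and 46.7 ± 22.7 TPM, overlapping CXCL8 in the NONO experiment but not in the PKM2 experiment. CXCL3 (24.7 ± 1.31 and 23.7 ± 3.79 TPM), CXCL1 (20.4 ± 3.77 and 19.0 ± 3.53 TPM), IL1A (26.3 ± 12.7 and 11.7 ± 3.29 TPM) and CSF2 (14.2 ± 5.14 and 13.2 ± 5.62 TPM) formed a middle group. Its neighbours in the order mostly overlapped in range, except that CXCL3 lay above CXCL1 in the NONO experiment. CCL20 stood below all of these in the NC libraries, at 3.04 ± 2.04 and 3.22 ± 0.840 TPM. CCL5 was near the limit of detection, with 0.97 to 13.6 estimated counts per library, and CCL2 had 0 counts in 11 of 12 libraries and 1 count in the other.

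**Figure D1:**
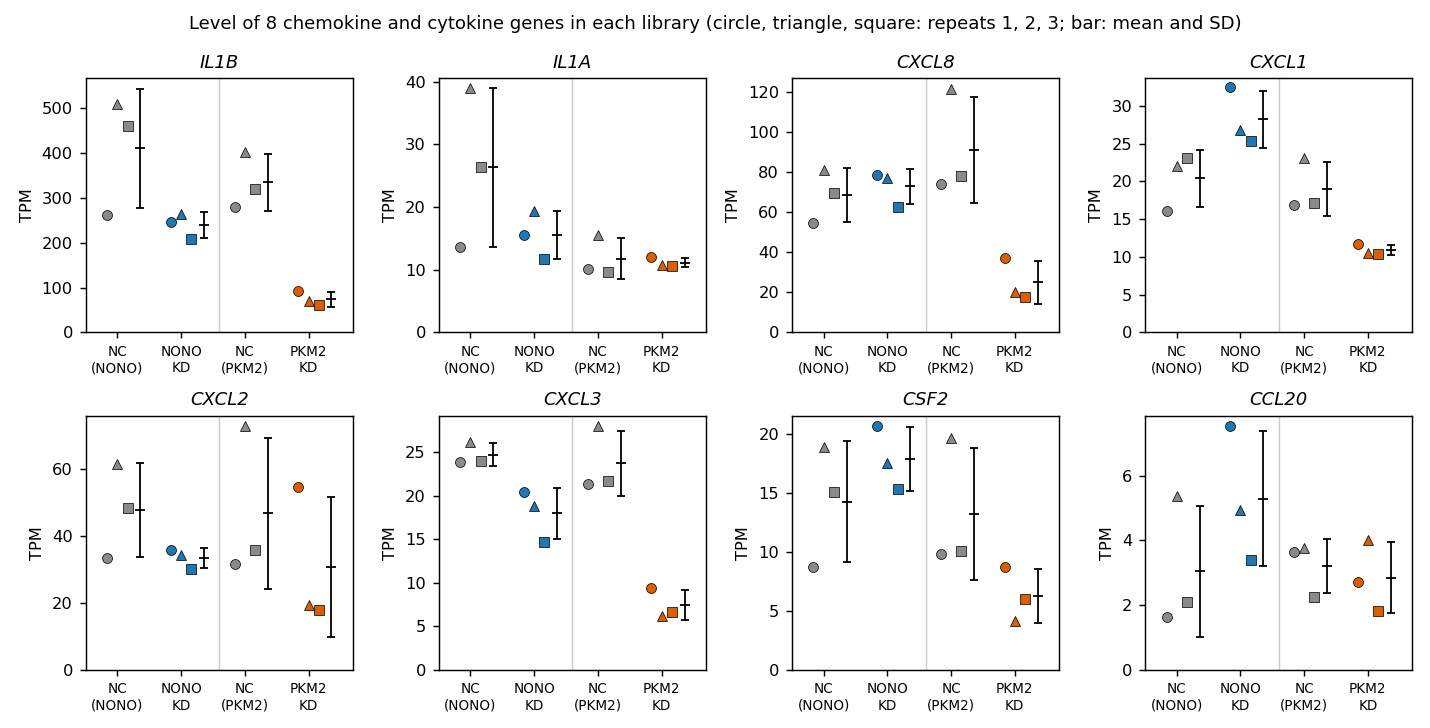
Level of 8 genes in TPM (vertical axes, each from 0) in the 12 libraries, with a symbol for each repeat and a bar for mean and SD of 3 libraries. IL1B in PKM2 knockdown lies between 60.3 and 92.7 TPM, below every NC library, whereas CXCL2 in the same libraries spans 17.9 to 54.8 TPM and overlaps its NC.

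PKM2 knockdown lowered 5 of the 8 genes that passed the low-count filter: IL1B, CXCL8, CXCL3, CXCL1 and CSF2. The other 3 tested genes, CXCL2, IL1A and CCL20, did not pass the test. Of all 15524 genes tested, 34.7% were lowered and 33.6% raised by the same rule, an adjusted P below 0.05 in edgeR, so that single calls were common in this experiment. None of the 8 genes was raised by edgeR, 0 at an unadjusted P below 0.05 and 0 by DESeq2. With the cutoffs of the study (more than 2-fold, P below 0.05 before adjustment), 3 of the 8 were lowered (IL1B, CXCL8 and CXCL3) and 0 raised, against 13.8% lowered and 7.05% raised among all genes. The median log2 fold change of the 8 genes was -0.85, against -0.01 over all genes tested.

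After NONO knockdown, CXCL1 was raised and IL1B lowered, 1 of the 8 in each direction, against 16.2% raised and 17.2% lowered among 14832 genes tested. No other member passed the adjusted test. By the study's cutoffs 0 of the 8 were called, in edgeR and in DESeq2 alike, against 0.789% raised and 2.16% lowered among all genes, although at an unadjusted P below 0.05 edgeR had 1 raised and 4 lowered, against 20.6% raised and 22% lowered among all genes at that threshold. The median log2 fold change was -0.06, against -0.01 over all genes. In bulk RNA, fewer cells making a transcript and less of it per cell cannot be told apart.

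CXCL8 encodes interleukin 8, the strongest neutrophil attractant of the family. It measured 74.0, 122 and 78.0 TPM in the NC libraries of the PKM2 experiment, and 37.4, 20.4 and 17.5 TPM after PKM2 knockdown. All 3 knockdown libraries lay below all NC libraries, with NC library 2 the highest and knockdown library 1 the least reduced. The counts gave a log2 fold change of -1.74 (SE 0.23, adjusted P = 3.02e-05), a 3.34-fold decrease. In the NONO experiment CXCL8 measured 54.5, 81.3 and 69.8 TPM in NC and 78.8, 77.1 and 62.8 TPM in the knockdown. Here the groups overlapped, and the log2 fold change was 0.17 (95% interval -0.11 to 0.45, adjusted P = 0.335), or 0.037 without NC library 1 (adjusted P = 0.738).

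CXCL3, a close paralog of CXCL1 and CXCL2, showed the tightest NC values of the 4 CXC genes in the NONO experiment. In the PKM2 experiment it measured 21.4, 28.1 and 21.7 TPM in NC and 9.41, 6.23 and 6.63 TPM in the knockdown. The groups were well separated, with a log2 fold change of -1.56 (SE 0.15, adjusted P = 1.56e-06), a 2.96-fold decrease. With NONO knockdown the values went from 23.9, 26.2 and 24.1 TPM in NC to 20.4, 18.8 and 14.7 TPM. These groups did not overlap either, yet the log2 fold change of -0.30 (SE 0.12) had an adjusted P of 0.0851 by edgeR. Without NC library 1 it was -0.32 (adjusted P = 0.0365), and without NONO knockdown library 1 it was -0.40 (adjusted P = 0.0491), both past the threshold, and over all alternatives the adjusted P ran from 0.0365 to 0.287.

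CXCL1, also known as GRO-alpha, was the member that moved in opposite directions in the 2 experiments. PKM2 knockdown libraries held 11.7, 10.6 and 10.4 TPM, against 16.9, 23.1 and 17.1 TPM in NC. The knockdown values were low and close together, and the log2 fold change was -0.75 (SE 0.14, adjusted P = 0.000525). NONO knockdown libraries held 32.5, 26.8 and 25.3 TPM, against 16.1, 22.1 and 23.1 TPM in NC. All 3 were above all NC libraries, with a log2 fold change of 0.51 (SE 0.13, adjusted P = 0.0116), a 1.42-fold increase. The call was lost without NONO knockdown library 1, the highest (0.42, adjusted P = 0.0618), and in limma on log2(TPM + 1) the adjusted P was 0.0791. Over all alternatives the adjusted P ran from 1.27e-05, in edgeR without a low-count filter, to 0.185.

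CXCL2 passed the edgeR test in neither experiment. Its NC libraries of the PKM2 experiment held 31.7, 72.8 and 35.8 TPM and the knockdown 54.8, 19.4 and 17.9 TPM. One library in each group was far above the other 2, so that the groups overlapped and the log2 fold change of -0.50 had a 95% interval of -1.35 to 0.35 (adjusted P = 0.276). Without PKM2 knockdown library 1 the value was -1.19 (adjusted P = 0.00366), and without NC library 2 it was -0.05 (adjusted P = 0.91). Without PKM2 knockdown library 3 it was -0.23 (adjusted P = 0.605). The adjusted P of all alternatives ran from 7.49e-08, in edgeR without a low-count filter, to 0.91. In the NONO experiment CXCL2 went from 33.5, 61.5 and 48.3 TPM to 35.8, 34.2 and 30.04 TPM, which overlapped through NC library 1. The log2 fold change there was -0.44 (SE 0.17, adjusted P = 0.0714), with an adjusted P of 0.035 by DESeq2 and of 1.72e-05 (log2 fold change -0.63) without NC library 1, and at most 0.315 over the alternatives. CXCL1, CXCL2 and CXCL3 share transcript sequence: of the 31-base words of CXCL1, 165 (15.5%) recur in CXCL2 and 30 (2.81%) in CXCL3, while none recurs in CXCL8. Their split between one another is therefore uncertain, and some of their estimated counts are not whole numbers.

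IL1B, the secreted interleukin 1 that needs cleavage to become active, had the largest fold decrease of the 8 genes after PKM2 knockdown. NC libraries held 280, 404 and 320 TPM and the PKM2 knockdown 92.7, 69.0 and 60.3 TPM. All 3 knockdown libraries lay far below all NC libraries. The log2 fold change was -2.07 (SE 0.13, adjusted P = 7.52e-08), a 4.20-fold decrease, and stayed between -2.23 and -1.93 when any 1 library was left out. With NONO knockdown IL1B measured 246, 264 and 209 TPM, against 261, 511 and 460 TPM in NC. NC library 1 sat at the level of the knockdown, and so the groups overlapped. The log2 fold change was -0.73 (SE 0.18, adjusted P = 0.0102), a 1.66-fold decrease, and without NC library 1 it was -0.95 (adjusted P = 1.7e-10). Without NONO knockdown library 3 the call was lost (-0.64, adjusted P = 0.0571). The alternatives gave adjusted P from 1.5e-46 to 0.198, the lowest only in edgeR without a low-count filter.

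IL1A, which is active also as an uncleaved precursor, passed the test in neither experiment. It measured 10.1, 15.5 and 9.56 TPM in NC of the PKM2 experiment and 12.04, 10.8 and 10.6 TPM in the knockdown. The groups overlapped, and the log2 fold change was 0.06 (95% interval -0.27 to 0.39, adjusted P = 0.746). Without NC library 2 the change was 0.29 (adjusted P = 0.0233), the lowest adjusted P of the alternatives, which reached 0.897. In the NONO experiment IL1A spanned a wide range in NC, with 13.6, 39.0 and 26.3 TPM, and measured 15.5, 19.3 and 11.8 TPM in the knockdown. The log2 fold change of -0.70 (SE 0.29) did not pass the test (adjusted P = 0.0877). Without the low NC library 1 it was -0.996 (adjusted P = 1.24e-05). Over all alternatives the adjusted P ran from 3.77e-15, in edgeR without a low-count filter, to 0.463. The deposited length of IL1A was 2124 bases in one table and 2017 in the other, so its TPM should be compared within an experiment.

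CSF2 measured 9.80, 19.7 and 10.1 TPM in NC and 8.67, 4.15 and 5.98 TPM after PKM2 knockdown. The groups lay next to each other without overlap, and the log2 fold change was -0.95 (SE 0.30, adjusted P = 0.0148). This call rested on few libraries: it was lost without NC library 2 (-0.57, adjusted P = 0.0845) and without PKM2 knockdown library 2 (-0.71, adjusted P = 0.0609). Over the alternatives the adjusted P ran from 2.17e-06, in edgeR without a low-count filter, to 0.0947. After NONO knockdown CSF2 measured 20.7, 17.5 and 15.3 TPM, against 8.73, 18.9 and 15.1 TPM in NC. These groups overlapped, with a log2 fold change of 0.39 (95% interval -0.12 to 0.90, adjusted P = 0.226), or 0.15 without NC library 1 (adjusted P = 0.488).

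Among the CC chemokines, CCL20 could be tested but was low, at 13 to 63 estimated counts per library. PKM2 knockdown libraries held 2.72, 4 and 1.83 TPM, against 3.63, 3.77 and 2.25 TPM in NC. The ranges covered each other almost entirely, with a log2 fold change of -0.00 (95% interval -0.71 to 0.70, adjusted P = 0.991). NONO knockdown libraries held 7.53, 4.95 and 3.41 TPM, against 1.63, 5.38 and 2.11 TPM in NC. The overlap came from NC library 2, and the log2 fold change of 0.86 (95% interval -0.08 to 1.80, adjusted P = 0.148) was 1.57 without it (adjusted P = 0.0134, the lowest of the alternatives, which reached 0.473). Without NC library 1 it was 0.58 (adjusted P = 0.227). CCL5 ranged from 0.07 to 0.38 TPM in the NONO experiment and from 0.07 to 0.79 TPM in the PKM2 experiment, with the highest value in PKM2 knockdown library 3. CCL5 and CCL2 were under the filter, and a count of 0 for CCL2 allows up to 3 counts, which is 0.143 to 0.151 CPM (counts scaled to library size) in the NONO experiment, for counting error only.

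**Figure D2:**
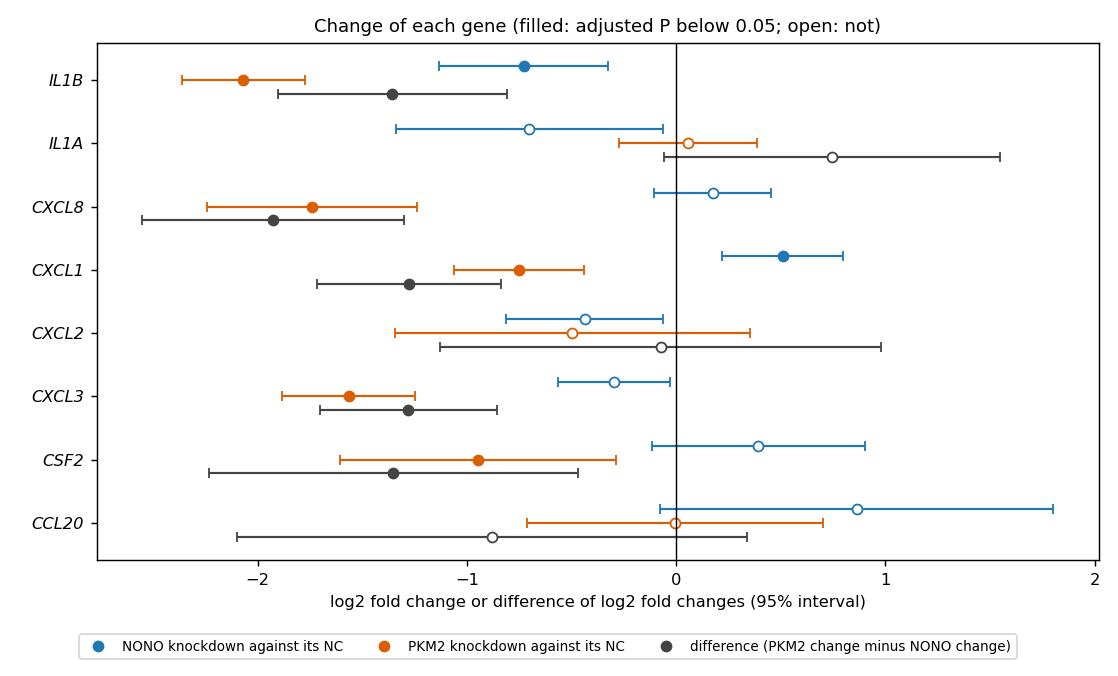
Log2 fold change of the 8 tested genes after NONO knockdown and PKM2 knockdown, and the difference between both, with 95% intervals on the horizontal axis (filled points, adjusted P below 0.05). IL1B, CXCL8, CXCL3, CXCL1 and CSF2 lie left of 0 after PKM2 knockdown and in the difference, while CXCL1 lies right of 0 after NONO knockdown.

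Summed over the 10 genes, NC libraries of the PKM2 experiment held 448, 688 and 495 TPM, and the knockdown 230, 145 and 132 TPM. The sum was lower in all 3 knockdown libraries, mainly through IL1B, whose share of it went from 58.6 to 64.7% in NC to 40.4 to 47.7% in the knockdown. In the NONO experiment the sum was 413, 765 and 669 TPM in NC and 458, 463 and 372 TPM in the knockdown, which overlapped. The share of IL1B there was 63.2 to 68.8% in NC and 53.8 to 57.0% in the knockdown.

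The response of the members to both knockdowns was then compared directly, each against its own NC. PKM2 knockdown changed 5 of the 8 genes more downward than NONO knockdown did, against 27.4% of 15995 genes tested lower and 25.7% higher in this comparison. With all 12 libraries, none of the 8 was higher, 0 at an unadjusted P below 0.05 and 0 by DESeq2. The difference in log2 fold change was -1.93 for CXCL8 (SE 0.30, adjusted P = 3.1e-05), -1.36 for IL1B (SE 0.26, adjusted P = 0.000275) and -1.35 for CSF2 (SE 0.42, adjusted P = 0.0114). For CSF2 the call was lost in limma on log2(TPM + 1) without the TPM filter (adjusted P = 0.095). CXCL1 and CXCL3 differed by the same -1.28, with adjusted P of 5.74e-05 and 3.81e-05. IL1A differed by 0.75 in the other direction (95% interval -0.06 to 1.55, adjusted P = 0.11). Without NC library 1 of the NONO experiment this was 1.06 (adjusted P = 0.0035 by edgeR), past the threshold. Without NC library 2 of the PKM2 experiment it was 0.99 (adjusted P = 0.0431), and the adjusted P of the alternatives reached 0.512. The intervals of CXCL2 (-1.13 to 0.98) and CCL20 (-2.10 to 0.34) were wide. Without NC library 2 of the NONO experiment the CCL20 difference was -1.56 (adjusted P = 0.024 by edgeR), past the threshold. Over its alternatives the adjusted P reached 0.502. Each knockdown belongs to its own experiment, so that the target and the experiment cannot be told apart in these differences.

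**Figure D3:**
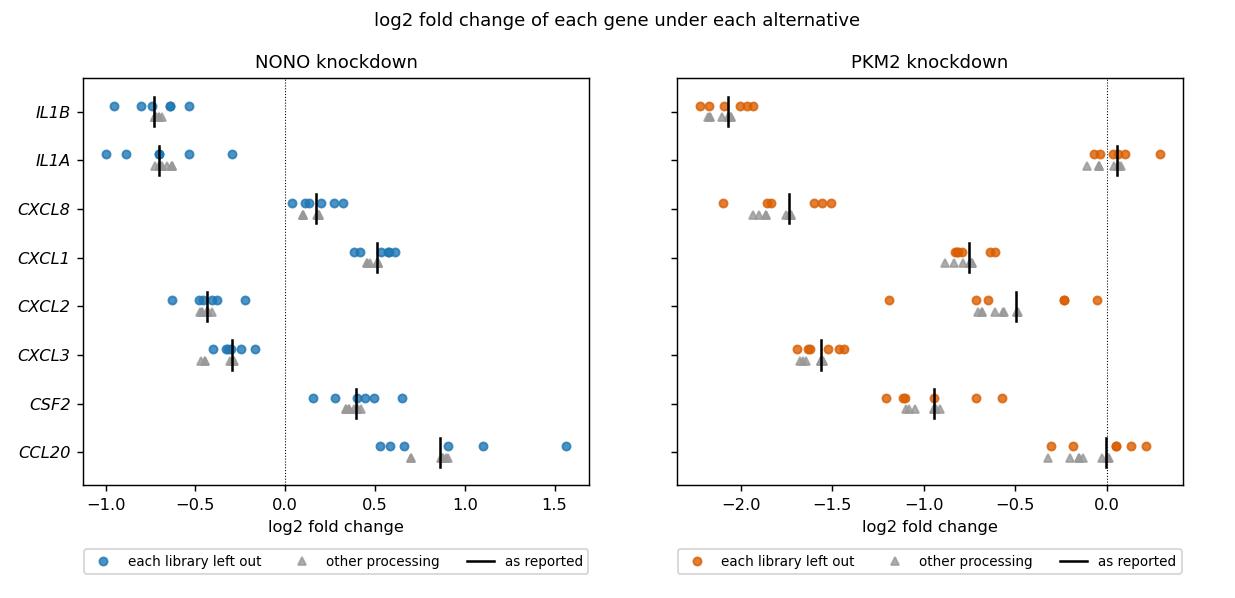
Log2 fold change of each gene as reported (black line), with each library left out (coloured circles) and under the other processing (grey triangles), for NONO knockdown on the left and PKM2 knockdown on the right. IL1B, CXCL8 and CXCL3 keep their values far left of 0 in the PKM2 panel, whereas CXCL2 spreads from -1.19 to -0.05.

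The genes around these cytokines were examined through fixed lists, whose counts stand beside 16.2% raised and 17.2% lowered among all genes with NONO knockdown, and 33.6% raised and 34.7% lowered with PKM2 knockdown. Of 12 other cytokines, 7 were tested. CSF3, which encodes G-CSF, a growth factor of neutrophils, rose after NONO knockdown from 42.8 ± 5.16 to 81.0 ± 3.88 TPM (SD, n = 3, log2 fold change 0.95, adjusted P = 8e-06). It fell after PKM2 knockdown, from 36.7 ± 6.45 to 15.4 ± 3.58 TPM (-1.22, adjusted P = 5.37e-06), and the difference was -2.18 (adjusted P = 7.81e-09). In the list as a whole, 1 rose and 1 fell with NONO knockdown, and 3 rose and 1 fell with PKM2 knockdown, where IL24 had the largest change (3.16, adjusted P = 2.43e-07) from a level of 0.460 ± 0.030 TPM. LIF rose after PKM2 knockdown (0.37, adjusted P = 0.00279) and stood at -0.09 with NONO knockdown (adjusted P = 0.565). IL6 passed neither test, at -0.59 (adjusted P = 0.179) after NONO knockdown and 0.08 (adjusted P = 0.778) after PKM2 knockdown. Of 16 other chemokines only 2 could be tested, of which CCL26 rose with PKM2 knockdown (0.78, adjusted P = 0.00598).

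Of 17 receptors and decoys, 5 were tested. IL1RAP, the co-receptor of IL1R1, fell in both experiments, by 0.37 on the log2 scale after NONO knockdown (adjusted P = 0.00121) and by 0.27 after PKM2 knockdown (adjusted P = 0.00694). In this list 0 rose and 2 fell with NONO knockdown, and 1 rose and 3 fell with PKM2 knockdown. IL1R1 itself was low, at 0.743 ± 0.179 TPM in NC of the NONO experiment, and passed neither test (adjusted P = 1 and 0.167), while IL1RN, the receptor antagonist, was under the filter. ACKR3, a scavenging receptor, changed most after PKM2 knockdown (-3.51, adjusted P = 0.00125) but from 0.547 ± 0.055 TPM.

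Of the genes that process and release IL1, 3 of 10 tested rose and 5 fell with PKM2 knockdown, and 1 of 9 rose and 2 fell with NONO knockdown. CAPN2, a calpain of the kind that cleaves the IL1A precursor, fell from 481 ± 2.26 to 101 ± 9.11 TPM (-2.18, adjusted P = 3.75e-11) after PKM2 knockdown. With NONO knockdown, NLRP1, an inflammasome sensor, had the largest change among the called genes of the list (-0.48, adjusted P = 0.00394). From the receptors to NF-kB, 4 of 15 tested genes rose and 2 fell with NONO knockdown, and 6 rose and 6 fell with PKM2 knockdown. MYD88, the adaptor below IL1R1, had the largest change of this list in both, falling by 0.49 (adjusted P = 0.000485) and by 1.49 (adjusted P = 1.76e-08) on the log2 scale.

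The subunits of NF-kB and their cofactors moved in both directions. RELA rose after PKM2 knockdown, with a log2 fold change of 0.47 (adjusted P = 3.82e-06). For NONO knockdown RELA had a log2 fold change of 0.13 in counts (adjusted P = 0.0444), but its TPM means were 95 ± 12.02 in NC and 94.1 ± 4.39 in the knockdown, so no direction is given. NFKB1 rose in both experiments, by 0.41 (adjusted P = 0.00157) and 0.49 (adjusted P = 1.33e-05). NFKB2 fell after PKM2 knockdown (-0.28, adjusted P = 0.000408) and was at 0.06 after NONO knockdown (adjusted P = 0.53). CEBPB, a cofactor at many cytokine promoters, had the largest change of the 8 subunits and cofactors, -1.35 (adjusted P = 0.000426) after NONO knockdown and 0.75 (adjusted P = 3.2e-07) after PKM2 knockdown, a difference of 2.09 (adjusted P = 8.48e-07). In all, by the log2 fold change in counts, 3 were called raised and 1 lowered with NONO knockdown. RELA, given no direction above, is 1 of those 3. With PKM2 knockdown 4 rose and 3 fell.

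NFKBIA, which encodes the inhibitor IkB-alpha and is itself induced by NF-kB, rose after NONO knockdown from 71.0 ± 0.190 to 102 ± 8.06 TPM (0.61, adjusted P = 1.48e-05). After PKM2 knockdown it fell, from 72.5 ± 8.67 to 40.8 ± 1.76 TPM (-0.70, adjusted P = 1.01e-05). TNFAIP3, the deubiquitinase A20, rose in both, by a log2 fold change of 0.44 (adjusted P = 0.00428) and 0.75 (adjusted P = 0.000812). Among the 10 feedback inhibitors 3 rose and 2 fell with NONO knockdown, where CYLD changed most (-0.74, adjusted P = 6.21e-06), and 5 rose and 4 fell with PKM2 knockdown, where NFKBIB did (1.46, adjusted P = 1.13e-08).

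Of the NF-kB targets outside the cytokines, 4 of 13 tested rose and 0 fell by edgeR with NONO knockdown, against 16.2% and 17.2% of all genes. With PKM2 knockdown 9 of 13 rose and 2 fell, against 33.6% and 34.7%. PTGS2, the inducible cyclooxygenase, had the largest change in both, 1.95 (adjusted P = 0.000124) and 1.76 (adjusted P = 1.85e-05), from 2.76 ± 1.52 and 2.503 ± 0.309 TPM in NC. ICAM1, an adhesion molecule, rose after PKM2 knockdown (0.44, adjusted P = 2.2e-05), while after NONO knockdown it was at 0.03 (adjusted P = 0.836). The list's median log2 fold change after PKM2 knockdown was 0.63, against -0.01 over all genes tested.

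**Figure D4:**
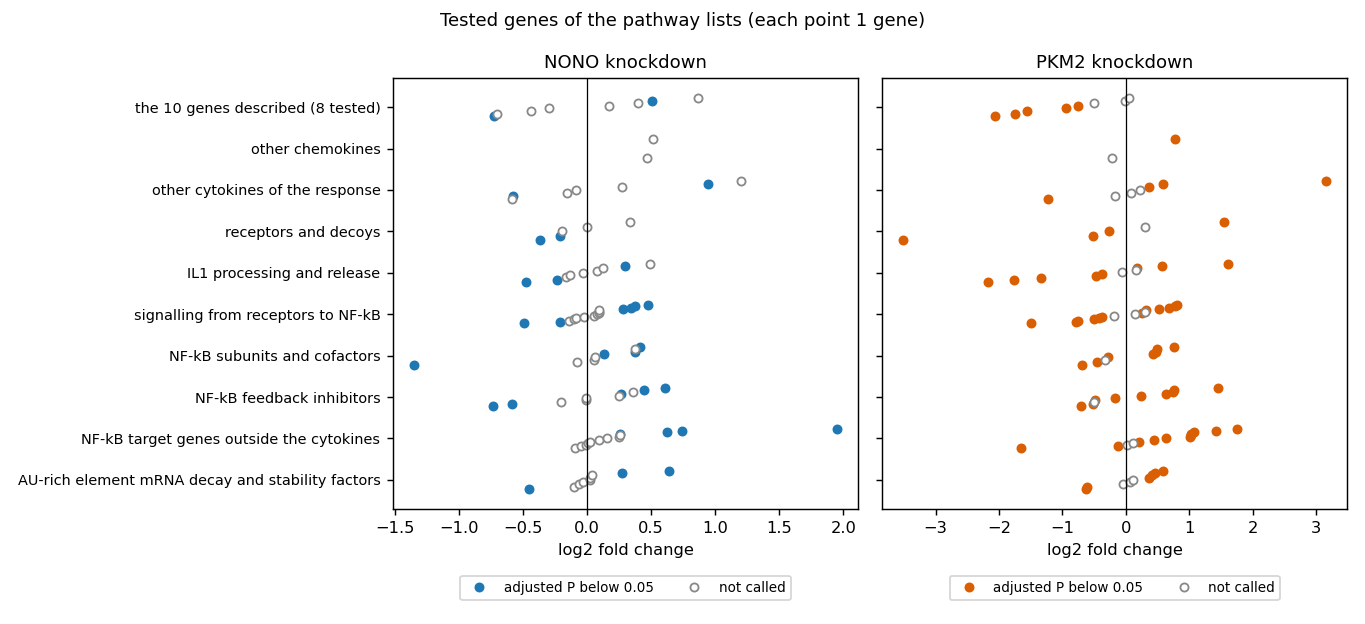
Log2 fold change (horizontal axis) of the tested genes in each list, 1 point per gene, filled where the adjusted P was below 0.05, with NONO knockdown on the left and PKM2 knockdown on the right. In the PKM2 panel 5 of the 8 points in the top row are filled and left of 0, while 9 of 13 NF-kB targets outside the cytokines are filled and right of 0.

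Several of the 10 genes carry an AU-rich sequence in the 3′ UTR, which the selection by name did not use. In GENCODE 29 transcripts, the AU-rich nonamer TTATTTATT occurred in 6 of the 10 genes, with 5 copies in CXCL2, 3 each in CXCL1 and CSF2, 2 in IL1B and 1 each in CXCL3 and CXCL8. It occurred in 8.20% of 18989 genes with a 3′ UTR and in 4.22% of 6641 genes whose 3′ UTR was of the members' length. IL1A, CCL20, CCL2 and CCL5 had no nonamer. The shorter ATTTA, which lies within the nonamer, occurred 5 times in IL1A, 3 in CCL20, 1 in CCL2 and 0 in CCL5. The 6 genes with the nonamer had 5 to 10 copies of ATTTA. The 5 genes lowered by PKM2 knockdown all carried the nonamer, and CXCL2, which carried the most copies, was not called. All 6 carriers were among the 8 genes tested, so most of the tested genes had it. The share of carriers among all genes lowered by PKM2 knockdown was not computed, and a link to the response was not tested. A list of 9 mRNA decay and stability factors was also examined, not all of which act on AU-rich elements. Of these 9, 2 rose and 1 fell with NONO knockdown, and 4 rose and 2 fell with PKM2 knockdown. ZFP36, which binds AU-rich elements and speeds decay, passed neither test (log2 fold change -0.06, adjusted P = 0.754 and 0.07, adjusted P = 0.556). Its paralog ZFP36L1 changed most with NONO knockdown (0.64, adjusted P = 0.000379), and ZC3H12A, an RNase also called Regnase-1, with PKM2 knockdown (-0.63, adjusted P = 0.000101).

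Members also differed in how they varied together. Over the 12 libraries, with each library centred on its NC mean of log2(CPM + 1), IL1B had a Pearson r of 0.96 with CXCL3, 0.90 with CXCL8 and 0.14 with IL1A, and CXCL1 one of 0.94 with CSF2. The 12 points share their group means and library depth, so these values describe the libraries and are not tests.

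The genes map to 4 chromosomes of GRCh38 in GENCODE 29, and none shares exon bases with another gene. CXCL8 (4:73740506-73743716), CXCL1 (4:73869393-73871242), CXCL3 (4:74036589-74038807) and CXCL2 (4:74097035-74099293) lie in one cluster, of which CXCL3 and CXCL2 are on the minus strand. IL1A (2:112773915-112784590) and IL1B (2:112829751-112836903) are neighbours on the minus strand of chromosome 2, where CCL20 lies elsewhere (2:227805739-227817564). CSF2 is at 5:132073790-132076170, CCL2 at 17:34255218-34257203 and CCL5 at 17:35871491-35880793.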

How the data were processed

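RNA-seq of polyA-selected RNA was deposited as 1 table per experiment, with 3 NC and 3 knockdown libraries each. The authors gave expected counts (RSEM-type estimated counts, not whole numbers for every gene) and TPM per gene, the latter scaled by the authors for gene length and depth. The deposited tables also hold the authors' fold changes and p-values, which were not used. Per the labels, the processing used fastp, HISAT2, StringTie, RSEM, DESeq2, edgeR and limma and the build hg19, without versions. Some gene identifiers belong to later GRCh38 annotations, so positions here come from GRCh38 and serve as location only.

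Estimated counts were rounded, filtered with filterByExpr (minimum count 10), TMM-normalised and tested by edgeR 4.0.16 quasi-likelihood in R 4.3.3, per experiment on all genes, and on all 12 libraries for the difference between knockdowns. SEs were derived from the test statistic. Adjusted P (Benjamini-Hochberg) covers all genes tested. The fit was tested on simulated data. DESeq2 1.42.0, limma 3.58.1 on log2(TPM + 1), other filters, length and GC trends and omission of each library were alternatives. The 10 members were named whatever their values. From each pathway list the called gene with the largest change in each experiment was named, and IL6, LIF, NFKBIA, TNFAIP3, RELA, NFKB1, NFKB2, IL1R1, IL1RN, ZFP36 and ICAM1 always. The members and lists were chosen with earlier results of these data known. The list of genes most like IL1B in pattern is not reported here.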

Additional observations from a re-analysis of the deposited data

Results flagged for a closer look

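For 5 of the 8 genes tested the change after PKM2 knockdown differed from the change after NONO knockdown by the edgeR test of the difference itself, all 5 lower, against 27.4% lower and 25.7% higher among all genes tested. The log2 change after PKM2 knockdown minus that after NONO knockdown was -1.28 for CXCL1 (adjusted P = 5.74e-05), where the 2 changes had opposite signs and each passed its own test. It was -1.28 for CXCL3 (adjusted P = 3.81e-05), with both changes negative. For CXCL8 it was -1.93 (adjusted P = 3.1e-05), for IL1B -1.36 (adjusted P = 0.000275) and for CSF2 -1.35 (adjusted P = 0.0114). IL1B was lowered in both experiments, with log2 fold changes of -2.07 and -0.73. When any 1 library was left out, the difference ranged from -2.29 to -1.68 for CXCL8, from -1.53 to -1.11 for IL1B and from -1.61 to -0.97 for CSF2. The CSF2 difference lost its call in limma on log2(TPM + 1) without the TPM filter (-1.30, adjusted P = 0.095).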

How the results depend on the processing

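With NONO knockdown 2 of the 8 genes were called. This became 6 without a low-count filter, 1 in limma on log2(TPM + 1) and on log2(TPM + 0.1), and 0 in limma without the TPM filter. Both limma fits with a call lost CXCL1 (adjusted P = 0.0791 and 0.0774) and IL1B (0.0795 and 0.0766), and called CXCL3 in their place (0.0409 and 0.0398). Leaving out 1 library gave 1 to 5, with 5 without NC library 1 and 1 without NONO knockdown library 3. The count past the study's cutoffs, 0 as reported, was 0 to 1 without 1 library. With PKM2 knockdown this count was 3, and 3 to 5 without 1 library, with 5 without PKM2 knockdown library 1. The counts of 5 called with PKM2 knockdown and of 5 called in the difference stayed within 4 to 6 under every alternative run. Over all 408 single-gene alternatives, 359 kept direction and call, 12 lost the call, 20 gained one and 17 changed sign.

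Signs changed for 3 results, none of which passed the test as reported. CCL20 after PKM2 knockdown was 0.0078 with relative log expression factors, 0.012 in DESeq2, 0.00098 without a low-count filter, and -0.30 to 0.22 without 1 library. IL1A after PKM2 knockdown was -0.041 in limma on log2(TPM + 1) with or without the TPM filter, -0.042 on log2(TPM + 0.1), -0.11 with length and GC trends taken out (added after seeing the data), and -0.067 to 0.29 without 1 library. The CXCL2 difference was -0.77 to 0.38 without 1 library. The cause was not tested.

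Same-numbered libraries had correlations of -0.12 to 0.05 in their deviations from the group means. Libraries of different numbers were not compared, so these values do not settle whether the numbers pair the libraries. With the number as a replicate block, 3 members were called with NONO knockdown (IL1A at -0.63, adjusted P = 0.0488), 5 with PKM2 knockdown and 5 in the difference.

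Over all genes, NONO knockdown had 4954 calls by edgeR, 2645 in limma on log2(TPM + 1) and 1699 without its TPM filter. These split into 2396 raised and 2558 lowered by edgeR and 911 and 1734 in limma. For PKM2 knockdown limma had 3525 raised and 4862 lowered, against 5221 and 5393 by edgeR. Low counts kept CCL2 and CCL5 out of the test.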
